A study of Zea mays with 40 samples.

Results

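The comparison set kernels of the parental inbred line T209 against kernels of the parental inbred line T210 in early filling, at 10 and 20 days after pollination (DAP). It used 8 of the 40 libraries of the series, 4 of T209 and 4 of T210, chosen by line and DAP alone. Both lines are maize (Zea mays) inbreds with no treatment, and the libraries were RNA sequencing libraries made from total RNA of seeds taken from the middle of the ear. The 2 libraries of each line and DAP came from 2 ears of similar appearance. The labels do not say which of T209 and T210 is the parent with the longer filling period, so no phenotype is set beside the expression values here. Each group is 1 inbred line, so a difference belongs to that pair of lines. The remaining libraries were those of T209 and T210 at 30, 40 and 50 DAP (12 libraries) and those of the inbred lines T147 and T191, which include 8 libraries of 10 and 20 DAP.

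Between these times the maize kernel passes from cell division to storage. The endosperm takes up sugar from the mother plant through transfer cells at its base, cleaves sucrose with invertases and sucrose synthase, and stores the carbon as starch. It also makes zeins, the alcohol-soluble storage proteins of maize, which are packed into protein bodies. The embryo follows with oil, globulins and proteins of desiccation. Whole kernels were sampled, so fewer cells of a type and less RNA per cell cannot be told apart in these values.

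Levels are given in FPKM (fragments scaled by the length of the transcript and by the number of fragments mapped in the library), which are per length and can be compared between genes. Differences between lines are given as T209 minus T210 on the log2(FPKM + 1) scale, which understates the change of low genes. A gene was called where limma with DAP as a term gave an adjusted p (Benjamini-Hochberg over all 28227 genes tested) under 0.05, and a gene was tested where at least 2 of the 8 libraries had at least 1 FPKM. A fold is the ratio of the mean FPKM over the 4 libraries of each line. FPKM summed to 556153 to 617225 per library, and 22106 to 25240 rows per library had at least 1 FPKM. Relative depth, read from the steps of the low values, was alike in the 8 libraries, between 1.04 and 1.21 times the median library of the series. The 9 green tissue markers checked (genes of photosynthesis) reached at most 1.89 FPKM in any of the 8 libraries.

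A pair of libraries stood apart within their lines. In ear 2 of T210 at 20 DAP, 23 of the 28 genes that had at least 5 FPKM in all T209 libraries and under 1 FPKM in the other T210 libraries reached 1 FPKM (82.1%). Their median level there was 24.6% of the T209 mean. The medians of 0.355% to 0.805% in the other T210 libraries follow from the choice of genes and are no contrast. In ear 1 of T209 at 10 DAP, 25 of the 41 genes chosen the other way round reached 1 FPKM (61%), at a median of 10.1% of the T210 mean. In each of the other 6 libraries at most 3 of the genes so chosen (5 to 19 genes) reached 1 FPKM. The cause was not tested. Counts are therefore also given without both libraries, an alternative added after the values had been seen. The first principal component of the 8 libraries (46.7% of the variance) parted 10 from 20 DAP, and the second (28%) parted T209 from T210. The ears agreed least in T210 at 20 DAP (Spearman rho 0.8913 across genes, against 0.928 to 0.9605 in the other groups).

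Early filling differed between the lines at 4896 of the 28227 genes tested. Of these, 2051 were higher in T209 (7.27% of the genes tested) and 2845 were higher in T210 (10.1%). All 4896 had the same sign at both DAP, which the fit itself favours, since a change of sign lowers the mean difference and adds to the residual spread. The lines did not overlap at either DAP at 1953 of the genes higher in T209 and 2754 of those higher in T210, where 8040 genes tested were without overlap in this way. On size, 1199 genes were at least 2-fold higher in T209 and 1706 in T210 on the log2(FPKM + 1) scale, and 23 and 68 genes were at least 8-fold higher. The median absolute log2 difference was 1.1 among called genes and 0.33 among all genes tested. Leaving out both libraries that stood apart gave 3240 calls, 2867 of them among the 4896. Calls were kept at 2253 genes (46%) whichever of the 8 libraries was left out, and a gene described as kept without each library is one of these. Counts of list members below are to be read against 7.27% and 10.1%, and none was tested as a set.

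The kind of row and the level of the gene went with the share called. Among rows named as loci assembled from the reads, 2042 of 6136 were called (33.3%), with 1051 higher in T209 and 991 higher in T210. Whether these loci overlap gene models of the annotation was not checked. Among genes with a GRMZM name, 2672 of 20985 were called (12.7%), with 932 higher in T209 and 1740 higher in T210. Genes with a mean under 5 FPKM were called at 20.5%, genes of 5 to 50 FPKM at 12.9% and genes of at least 50 FPKM at 14.1%. Of the 1649 genes in this highest class, 70 were higher in T209 and 162 in T210.

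Storage protein genes were among the most abundant, and 5 of the 6 zeins called stood higher in T209. The 24 zein rows held 12 distinct sets of values, because some alpha-zein rows carry the same FPKM in every library. Why they do was not tested, and such rows cannot be told apart here. Of the 12, 5 were called higher in T209 and 1 higher in T210, and the median difference was 1.41, against -0.03 over all genes tested. The 24 rows together made up 14.4% and 12.2% of the FPKM sum at 10 DAP and 15.7% and 14% at 20 DAP in T209. In T210 the shares were 3.57% and 6.44% at 10 DAP and 15% and 4.82% at 20 DAP. T209 thus lay above T210 at 10 DAP, while at 20 DAP ear 1 of T210 lay between the ears of T209 and ear 2 far below them. With identical rows counted once, the shares were 9.76% to 13.5% in T209 and 2.98%, 4.80%, 12% and 4.22% in T210. Without both libraries that stood apart, and also with the libraries rescaled by their median ratio, 2 zeins were called higher in T209 and 1 higher in T210.

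The widest zein difference in favour of T209 was at dzs18, which encodes the 18 kDa delta-zein, a methionine-rich storage protein. Its level was 1653 and 2228 FPKM at 10 DAP and 1802 and 1408 FPKM at 20 DAP in T209, against 61, 111, 183 and 125 FPKM in T210. Every T209 library was far above every T210 library. The mean was 14.8-fold higher in T209 (log2 difference 3.96 ± 0.33 (SE), n = 4 libraries a line, limma adjusted p = 0.000315), and the call was kept without each library.

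Next came z1C2, the 22 kDa alpha-zein gene also known as floury2. It stood at 6960.4, 6507, 12674 and 7546 FPKM in T209 and at 280.5, 727, 3422 and 745 FPKM in T210. The lines did not overlap, although ear 1 of T210 at 20 DAP was well above the other T210 ears. The difference was 3.25 ± 0.55 (SE), with a limma adjusted p of 0.00496, and the call was kept without each library.

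The gamma-zeins gz50 and gz16 and the alpha-zein z1B_8 were called higher in T209 by a narrower margin. The level of gz16 was 11650.5, 8710.0, 11486 and 13488 FPKM in T209 against 2046, 3092, 10443 and 3962 FPKM in T210. The gap was thus wide at 10 DAP and small for ear 1 at 20 DAP. The log2 differences were 1.48 for gz16 (limma adjusted p = 0.0488), 1.8 for gz50 (0.0265) and 2.0 for z1B_8 (0.0362). Each of these 3 calls was lost without some libraries (7, 5 and 7 of the 8), with adjusted p-values of up to 0.167 for gz16 and 0.0841 for gz50, both without ear 1 of T209 at 10 DAP, and up to 0.1 for z1B_8 without ear 1 of T210 at 10 DAP. The 15 kDa beta-zein gene bz15, the most abundant zein, reached 29058 to 39999.8 FPKM in T209 and 8203, 12334, 36238 and 13949 FPKM in T210. Its difference of 1.23 missed the threshold (limma adjusted p = 0.126), as did the z1C1 copies and the 19 kDa z1A genes.

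**Figure D1:**
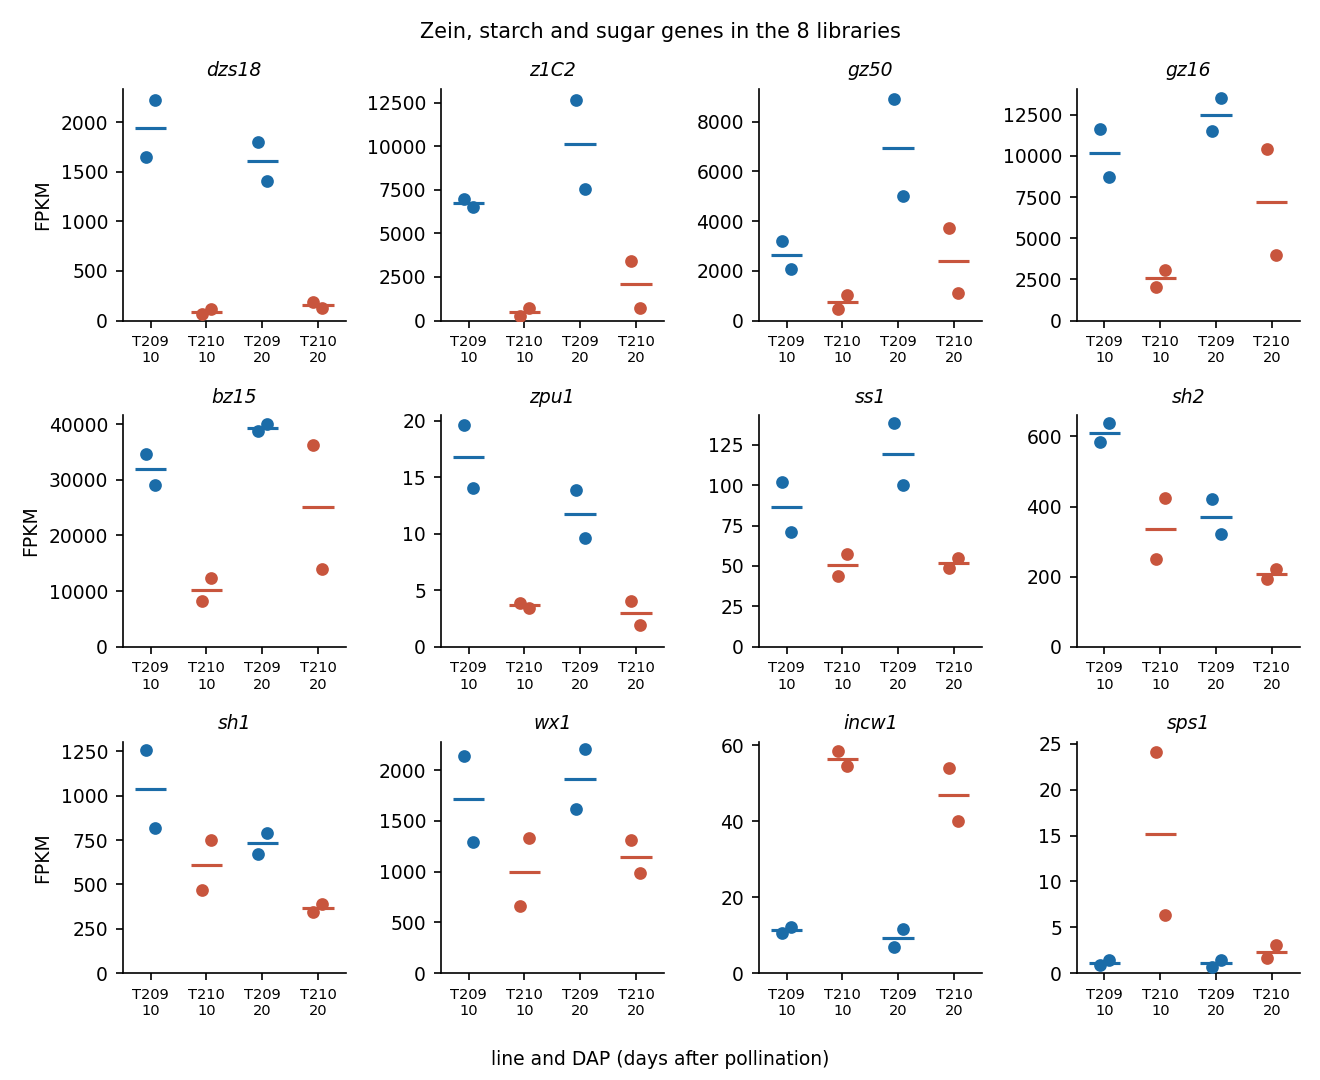
FPKM of 12 zein, starch and sugar genes in the 8 libraries, each panel with its own linear axis from 0. Points are single libraries and bars the mean of 2 ears, T209 in blue and T210 in red, at 10 and 20 DAP. For dzs18 all T209 points lie at 1408 FPKM or more and all T210 points at 183 FPKM or less, incw1 shows the opposite order, and for bz15 ear 1 of T210 at 20 DAP lies at 36238 FPKM, among the T209 points.

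A single zein ran the other way. The row of gz27, the 27 kDa gamma-zein, stood at 4265 and 7334 FPKM at 10 DAP and 11790.4 and 4580.1 FPKM at 20 DAP in T210. In T209 it stood at 6.71, 1.27, 1.01 and 0.744 FPKM. The log2 difference of -11.16 ± 0.49 (SE) was the widest of the comparison (limma adjusted p = 4.44e-05), and the call was kept without each library. The highest T209 value was in ear 1 at 10 DAP, the library that stood apart.

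Other libraries of the series limit what the gz27 row can be taken to measure. In T147 and T191 at 10 and 20 DAP it lay between 0.289 and 12.3 FPKM, while gz16, its nearest relative in the list, lay between 2922 and 12697 FPKM in the same libraries. The ratio of gz27 to gz16 was between 5.52e-05 and 0.000576 in T209 and between 1.13 and 2.37 in T210 in early filling. At 40 and 50 DAP, however, the ratio was between 0.756 and 4.40 in all 16 libraries of the 4 lines (median 1.09). It was 0.977 and 0.997 in T147 at 30 DAP, and the ears of T209 at 30 DAP gave 542 and 4.47 FPKM. Why the row was near 0 in early libraries of 3 lines was not tested.

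**Figure D2:**
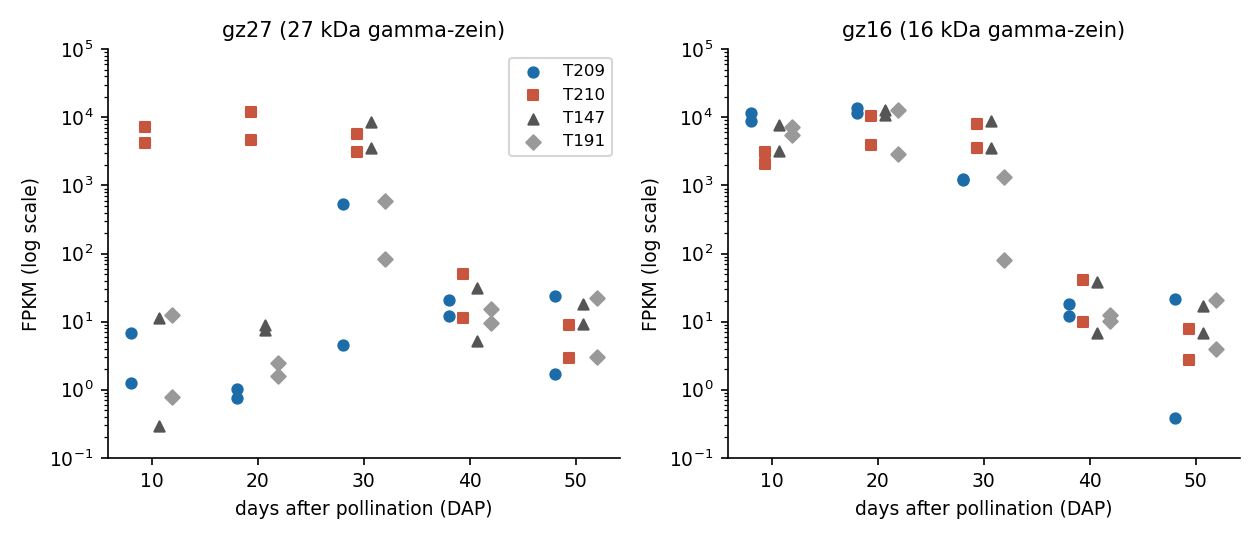
FPKM (log axis) of the gamma-zein genes gz27 and gz16 by DAP in all 40 libraries, a point per library, with the 4 lines in separate colours and symbols. At 10 and 20 DAP gz27 is at 4265 FPKM or more in T210 and at 12.3 FPKM or less in T209, T147 and T191, while gz16 is at 2046 FPKM or more in all of them, and from 40 DAP both genes are at 49.9 FPKM or less in all lines.

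Starch genes were higher in T209 where they differed. Of 19 genes tested, 3 were called higher in T209 and 0 higher in T210, with a median difference of 0.52 and 14 of the 19 above 0. Leaving out the libraries that stood apart left 1 call (median 0.50), and rescaled libraries gave 4. The widest difference was at zpu1, the pullulanase-type debranching enzyme that trims amylopectin. It stood at 19.6, 14, 13.8 and 9.66 FPKM in T209 against 3.92, 3.47, 4.03 and 1.92 FPKM in T210. The lines were apart in every library, by 4.28-fold on average (log2 difference 1.81 ± 0.23 (SE), limma adjusted p = 0.00168), and the call was kept without each library.

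Smaller differences were seen at abundant starch genes. Starch synthase I (ss1) stood at 102, 71.3, 139 and 100.3 FPKM in T209 and 43.9, 57.3, 49 and 55.1 FPKM in T210 (difference 0.96, limma adjusted p = 0.0152). Its call was lost without ear 1 of T209 at 10 DAP (limma adjusted p = 0.0536). The large subunit of endosperm ADP-glucose pyrophosphorylase, sh2, which makes the substrate of starch synthesis, stood at 583, 638, 422 and 320.5 FPKM against 249, 425, 192 and 221 FPKM (difference 0.87, limma adjusted p = 0.0341). The lines did not overlap within a DAP, but this call was lost without 5 of the 8 libraries (adjusted p of up to 0.115 without ear 2 of T209 at 10 DAP). Its small subunit partner bt2 (difference 0.75, 0.0552), the branching enzymes sbe1 (0.76, 0.0542) and SBEIIb (0.71, 0.0688), and wx1, the granule-bound synthase of amylose (0.78, 0.132), had differences of like size whose limma adjusted p missed the threshold.

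Sugar genes were split. Of 14 tested, 1 was called higher in T209 and 3 higher in T210 (median 0.02). The 3 higher in T210 included a pair of invertases, enzymes that split sucrose into hexoses. The cell wall invertase gene incw1 stood at 10.4, 12.2, 6.79 and 11.5 FPKM in T209 and at 58.4, 54.5, 54 and 39.9 FPKM in T210. All T210 libraries lay above all T209 libraries, by 5.05-fold on average (log2 difference -2.24 ± 0.20 (SE), limma adjusted p = 0.000477), and the call was kept without each library. INCW2, the cell wall invertase of the endosperm base (miniature1), was more abundant at 10 DAP, at 180.4 and 233 FPKM in T209 and 794 and 272 FPKM in T210. Its difference of -0.49 missed the threshold (limma adjusted p = 0.511).

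The soluble invertase ivr2 (difference -0.94, limma adjusted p = 0.0233) and the sucrose phosphate synthase sps1 (-1.69, 0.0419) were the other calls higher in T210. Both were low genes, at most 3.63 and 24.1 FPKM. Sucrose synthase sh1, which cleaves sucrose in the endosperm, was the call higher in T209. It stood at 1260.0, 819.7, 672 and 789.5 FPKM in T209 and 467, 751, 343 and 392 FPKM in T210 (difference 0.88, limma adjusted p = 0.0450). These 3 calls were lost without 5, 5 and 7 of the 8 libraries, with adjusted p-values of up to 0.0754 (ivr2) and 0.149 (sh1) without ear 1 of T209 at 10 DAP and up to 0.117 (sps1) without its ear 2. Without both libraries that stood apart, incw1 and ivr2 kept the call and 0 sugar genes were called higher in T209.

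Regulators of the endosperm and genes known from opaque or floury kernels were split as well. Of 15 tested, 4 were called higher in T209 and 3 higher in T210 (median 0.14). Opaque10, a protein of the zein protein bodies, stood at 14.2, 15.1, 21.4 and 20.8 FPKM in T209 and 7.52, 7.69, 8.96 and 10.5 FPKM in T210. The lines were apart in every library (log2 difference 0.95 ± 0.16 (SE), limma adjusted p = 0.0044), and the call was kept without each library. Floury1, a membrane protein of protein bodies, was 2.44-fold higher in T209 (difference 1.22, limma adjusted p = 0.0173), and so was, by a wider margin, the NAC domain transcription factor nac4, at 947, 1098, 609 and 933 FPKM against 243, 487, 206 and 404 FPKM (difference 1.48, limma adjusted p = 0.0134). The call of Floury1 was lost without ear 1 of T210 at 10 DAP (0.0555) and that of nac4 without ear 2 of T209 at 10 DAP (0.0514). The remaining call higher in T209, o7 (difference 0.96, limma adjusted p = 0.0482), was lost without 6 libraries, up to 0.125 without ear 2 of T209 at 10 DAP.

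Higher in T210 was fl3, a PLATZ protein of the endosperm. It stood at 1475 and 1622 FPKM at 10 DAP and 12.3 and 3.37 FPKM at 20 DAP in T210, against 434, 255, 3.10 and 1.99 FPKM in T209. Both lines had nearly all of it at 10 DAP, where they were furthest apart in FPKM (log2 difference over both DAP -1.67, limma adjusted p = 0.0167). That call was lost without 3 libraries, up to 0.0631 without ear 2 of T210 at 10 DAP. The NAC factor NRP1 (difference -1.14, 0.0389) and the bZIP factor ohp1 (-0.67, 0.0342) were also called higher in T210 by limma, each lost without 6 libraries (up to 0.105 without ear 2 of T210 at 10 DAP and up to 0.130 without ear 2 of T209 at 10 DAP). The zein activators o2 and pbf1 did not pass the test: o2 stood at 103 to 269.8 FPKM in T209 and 69.8 to 190.5 FPKM in T210 (difference 0.39, limma adjusted p = 0.322), and pbf1 at 17.1 to 18.5 FPKM and 12.2 to 20.8 FPKM (0.29, 0.354).

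Over both DAP, genes that mark the small tissue around the embryo were called only as higher in T210. Of 6 genes of the embryo-surrounding region, 3 were called higher in T210 and 0 higher in T209, with a median difference of -1.52. The summed level of the 6 was 43.4 and 46.9 FPKM at 10 DAP and 15 and 10.6 FPKM at 20 DAP in T209, against 304, 136, 58.4 and 30.4 FPKM in T210. Every T210 ear was above every T209 ear of its DAP. At esr6 the levels were 24, 19.2, 14.3 and 9.32 FPKM in T209 and 113, 52.9, 49.6 and 28.1 FPKM in T210 (log2 difference -1.71 ± 0.29 (SE), limma adjusted p = 0.00484). For ae3 they were 1.19, 0.770, 0.208 and 0.406 FPKM against 6.59, 5.25, 1.04 and 1.76 FPKM (-1.33, 0.00654). Both calls were kept without each library. The third, esr2 (-1.89, limma adjusted p = 0.0384), was lost without 7 of the 8 libraries (up to 0.108 without ear 1 of T210 at 10 DAP). ESR3 stood at 1.17 and 1.25 FPKM in T209 and 40.0 and 14.3 FPKM in T210 at 10 DAP, a difference called at that DAP (-3.50, limma adjusted p = 0.00355) but not over both (0.0812).

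Transfer layer genes, which mark the cells that load sugar into the endosperm, were called at a share near that of all genes tested. Of 13 tested, 1 was called higher in T210 and 0 higher in T209 (median -0.13). It was the pair of identical rows bap-1a and bap1-b, basal layer antifungal proteins, at 25.5, 8.59, 0.521 and 0.126 FPKM in T209 and 129, 41.5, 2.10 and 1.62 FPKM in T210 (difference -1.67, limma adjusted p = 0.0280). The call was lost without 3 libraries, up to 0.0689 without ear 2 of T209 at 10 DAP. BET1 stood at 475 and 303 FPKM in T209 and 1235 and 600.2 FPKM in T210 at 10 DAP, but at 45.7 and 41.2 FPKM against 38.4 and 23.2 FPKM at 20 DAP (difference over both -0.33, 0.627). The summed level of the list, identical rows counted once, was 2880.9 and 2696 FPKM in T209 and 6960 and 2753 FPKM in T210 at 10 DAP. At 20 DAP it was 457 and 268 FPKM in T209 against 179.9 and 137 FPKM in T210. At 10 DAP alone 2 of the 13 were called higher in T210 and 0 higher in T209 (median -0.81), against 6.15% and 5.43% of all genes tested. The bap-1a pair was 1 of these (difference at 10 DAP -2.22, limma adjusted p = 0.0453). At 20 DAP alone 1 member was called, betl-9, higher in T209, at 203 and 118 FPKM against 40.3 and 34.2 FPKM (difference at 20 DAP 2.03, limma adjusted p = 0.0478). The order of the lines in the sum thus differed between the DAP, and a single ear of T210 carried the gap in the sum at 10 DAP.

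Embryo genes did not separate the lines. Of 10 genes of embryo storage and desiccation, 0 were called by limma (median 0.21). The globulin genes glb1 and glb2 and most other members were far more abundant at 20 than at 10 DAP in both lines, where glb1 stood at 49.8 and 63.2 FPKM at 10 DAP and 2318 and 2958 FPKM at 20 DAP in T209, and at 35.2, 72.1, 3045 and 7956 FPKM in T210. Ear 2 of T210 at 20 DAP was the highest of the 8 libraries for most of these genes, with EMB5 at 1994 FPKM against 112 FPKM in ear 1, while the 24 zein rows made up 4.82% of its FPKM sum, against 15% in ear 1. Among 13 oil genes 1 was called, the acyl carrier protein thioesterase FatB, at 13.5, 8.57, 21.5 and 24.1 FPKM in T209 and 7.71, 6.53, 5.57 and 11.5 FPKM in T210 (difference 0.97, limma adjusted p = 0.0397). Its call was lost without 5 libraries (up to 0.111 without ear 2 of T209 at 20 DAP). Without both libraries that stood apart, Lea14A and MGL3 of the embryo list were called higher in T209 (limma adjusted p = 0.00166 and 0.0220) and EREB85 of the oil list higher in T210 (0.0314). The oleosin gene ole1 stood at 1132, 1186, 10245 and 13556 FPKM in T209 and 753, 1051, 12214 and 26888 FPKM in T210, with no call (difference -0.12, limma adjusted p = 0.873).

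Pigment pathway genes differed in opposite directions at successive steps. Of 11 genes of the phenylpropanoid and anthocyanin pathway, 2 were called higher in T209 and 3 higher in T210, counts that were the same without both libraries that stood apart (9 tested) and with rescaled libraries. The entry enzyme PAL1 (phenylalanine ammonia-lyase) stood at 209.7, 265, 555 and 1011 FPKM in T209 and 136, 91.6, 185 and 142 FPKM in T210. All T209 ears were above all T210 ears (log2 difference 1.64 ± 0.32 (SE), limma adjusted p = 0.00827). Chalcone synthase, c2, the first enzyme of the flavonoid branch, stood at 5.27, 4.93, 0.0420 and 0.0907 FPKM in T209 and 23.6, 20.9, 8.53 and 4.97 FPKM in T210. Within each DAP the T210 ears were higher, and at 20 DAP T209 was close to 0 (difference -2.38 ± 0.24 (SE), limma adjusted p = 0.000736).

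The next enzyme of the pathway, chalcone isomerase, chi1, ran the other way, at 115, 117, 52.2 and 74.1 FPKM in T209 and 27.8, 20.0, 30.0 and 13 FPKM in T210 (difference 1.93 ± 0.29 (SE), limma adjusted p = 0.00298). The lines did not overlap. Dihydroflavonol reductase, A1, was higher in T210, at 36.3, 40.7, 0.305 and 0 FPKM in T209 and 95.7, 124, 1.39 and 1.64 FPKM in T210 (difference -1.31 ± 0.19 (SE), limma adjusted p = 0.00249). All 4 of these calls were kept without each library. The pathway regulator p1, a MYB factor of the red pericarp pigments, stood at most at 0.553 FPKM in T209 and at 1.52, 1.75, 0.751 and 0.441 FPKM in T210 (difference -0.87, limma adjusted p = 0.0154). It fell below the filter on low values without either ear of T210 at 10 DAP. The anthocyanin regulators c1, r1 and pl1 were not tested, since fewer than 2 libraries reached 1 FPKM. The highest value among them was 10.9 FPKM of c1 in ear 1 of T209 at 20 DAP, with c1 at 0.0357 FPKM or less in the other 7 libraries.

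**Figure D3:**
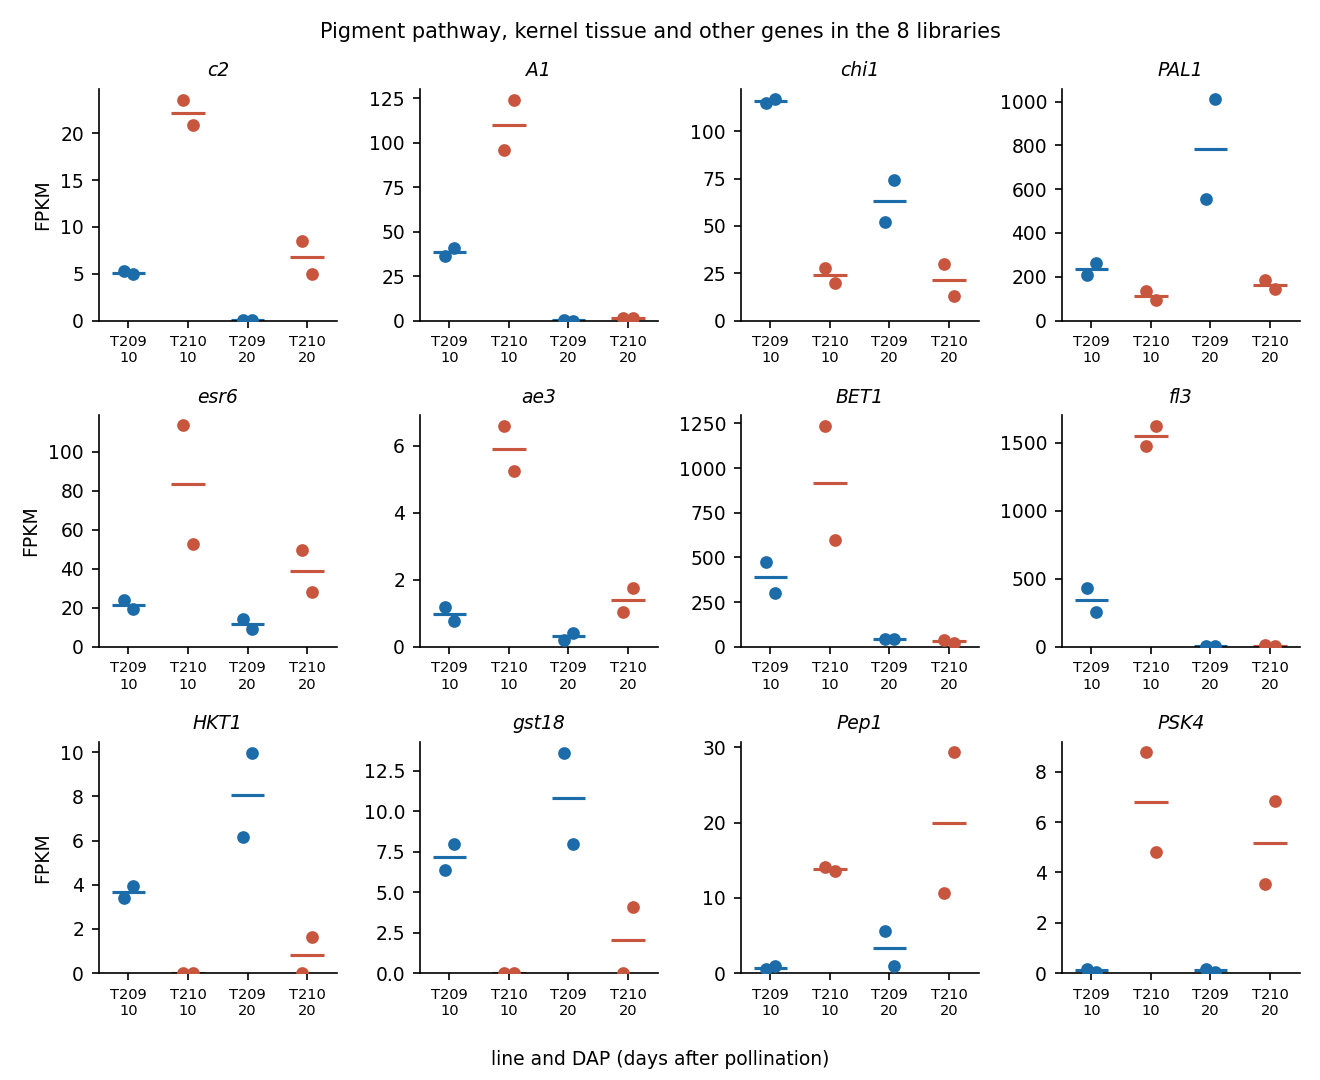
FPKM of 12 genes of the pigment pathway, kernel tissues and other groups in the 8 libraries, each panel with its own linear axis from 0. Points are single libraries and bars the mean of 2 ears, T209 in blue and T210 in red, at 10 and 20 DAP. The genes c2 and A1 lie higher in T210 and chi1 and PAL1 higher in T209 at both DAP, and for HKT1 and gst18 the only T210 ear above 1 FPKM is ear 2 at 20 DAP, at 1.65 and 4.06 FPKM.

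Few genes of cell division and DNA replication were called. Of 30 tested, 4 were called higher in T210, a share close to the 10.1% of all genes, and 0 higher in T209, and 25 of the 30 differences lay below 0 (median -0.33). The list's summed level was 1242 and 1359.6 FPKM at 10 DAP and 409 and 442 FPKM at 20 DAP in T209, and 1408, 1749, 918 and 710.0 FPKM in T210. The gap between lines was thus wider at 20 DAP, when the list was lower in both. RNRL1, a large subunit of ribonucleotide reductase, which makes the building blocks of DNA, stood at 34.4, 39, 30.8 and 19.1 FPKM in T209 and 143, 107, 52.4 and 37.5 FPKM in T210. No ears overlapped within a DAP (log2 difference -1.29 ± 0.26 (SE), limma adjusted p = 0.00979), and the call was kept without each library. The small subunit RNRS3 (-0.81, 0.0255), histone H4C14 (-1.43, 0.0304) and the sliding clamp PCNA (-0.63, 0.0388) were called by limma but lost without 4, 4 and 7 libraries, up to 0.0672 without ear 1 of T209 at 20 DAP, 0.0852 without ear 2 of T210 at 10 DAP and 0.113 without ear 1 of T209 at 10 DAP. With the libraries that stood apart left out, 2 members of the list were called higher in T210 (median -0.14).

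Calls among auxin genes and expansins were mostly higher in T210. The auxin-binding protein rows abp4 and abp5, which hold identical values, stood at 7.39, 6.93, 5.39 and 5.03 FPKM in T209 and 23.2, 15.2, 17.3 and 12.6 FPKM in T210 (difference -1.31 ± 0.19 (SE), limma adjusted p = 0.00276). Together with the auxin exporter PIN1a (difference -1.12, limma adjusted p = 0.0258, up to 0.0766 without ear 2 of T209 at 20 DAP and lost without 5 libraries), they were 2 calls among 5 distinct auxin genes. Of 10 expansins, which loosen cell walls, 3 were called higher in T210 and 1, EXPA5, higher in T209 (median -0.55). The beta-expansin expB3 stood at 127, 139, 23.2 and 36.6 FPKM in T209 and 262, 269, 112 and 73.2 FPKM in T210 (difference -1.30 ± 0.24 (SE), limma adjusted p = 0.00671). The calls of abp4 and expB3 were kept without each library. Expansin expA3 stood at 0.604 FPKM or less in T209 and 10.4, 10.9, 2.66 and 0.208 FPKM in T210 (difference -2.0, limma adjusted p = 0.0130, lost only without ear 2 of T210 at 10 DAP, 0.0524), while expB7 (-0.97, 0.0488) and EXPA5 (0.95, 0.0447) were each lost without 7 libraries (up to 0.122 without ear 1 of T209 at 20 DAP and up to 0.128 without ear 2 of T209 at 10 DAP).

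Defence genes gave 2 calls higher in T209 and 5 higher in T210 among 19 tested, with a median of -0.02 that turned to 0.04 with rescaled libraries. Pep1, the precursor of a peptide that triggers defence, stood at 0.483, 0.869, 5.57 and 0.964 FPKM in T209 and 14.1, 13.6, 10.6 and 29.4 FPKM in T210. All T210 ears were higher (difference -2.77 ± 0.42 (SE), limma adjusted p = 0.00321). The chitinase gene chn1 stood at 1.19, 2.21, 3.85 and 1.65 FPKM in T209 and 47.7, 22, 12.2 and 6.29 FPKM in T210 (-2.56 ± 0.48, 0.00743). The wound-induced protease inhibitor wip1 was higher in T209, at 3.55, 2.77, 15.8 and 32.6 FPKM against 0.180, 0.798, 3.40 and 2.68 FPKM (2.03 ± 0.31, 0.00322). These 3 calls were kept without each library.

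The thaumatin-like gene PR-5 was called higher in T210 (difference -2.99, limma adjusted p = 0.0248), but its ear 2 at 20 DAP had 1.14 FPKM, next to 0 to 1.08 FPKM in T209, and the call was lost without 5 libraries (up to 0.0774 without ear 1 of T210 at 10 DAP). The protease gene mir2 (-1.06, 0.0401) and the benzoxazinoid genes bx8 (-0.63, 0.0406) and bx6 (1.45, 0.0388, higher in T209) were each lost without 6 or 7 libraries, up to 0.102 without ear 1 of T209 at 10 DAP, 0.130 without its ear 2 and 0.122 without ear 2 of T210 at 10 DAP. Of 12 heat shock genes only hsp 17.2, a small heat shock protein, was called. It stood at 12.2, 5.37, 290.2 and 56.6 FPKM in T209 and 80.5, 63.9, 831 and 412 FPKM in T210 (-2.59 ± 0.50, limma adjusted p = 0.0081), and the call was kept without each library.

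Glutathione transferases, which join glutathione to toxic compounds, gave 1 call higher in T209 and 5 higher in T210 among 23 tested (median -0.06). The call higher in T209 was gst18, at 6.36, 7.97, 13.6 and 7.98 FPKM in T209 and 0.0313, 0, 0 and 4.06 FPKM in T210 (difference 2.68 ± 0.44 (SE), limma adjusted p = 0.00457). Its highest T210 value was in the ear that stood apart, and gst18 meets the rule by which that ear was singled out. The limma adjusted p of 0.00105 without both such libraries is therefore no separate support. Calls higher in T210 and kept without each library were gst20, at 0.392 to 1.10 FPKM in T209 against 1.96 to 4.01 FPKM, and gst28, at 0.113 to 0.921 FPKM against 1.66 to 2.71 FPKM (limma adjusted p = 0.00566 and 0.00868). The other 3, gst19 (0.0158), gst5 (0.0445) and gst37 (0.0190), were lost without 3, 6 and 3 libraries, up to 0.0621 without ear 2 of T210 at 10 DAP, 0.142 without ear 2 of T209 at 10 DAP and 0.0616 without ear 2 of T209 at 20 DAP.

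Outside the lists, genes with a name and a wide difference included transporters, signals and transcription factors. HKT1, of a family of sodium and potassium transporters, stood at 3.38, 3.93, 6.17 and 9.99 FPKM in T209 and 0, 0.0219, 0 and 1.65 FPKM in T210 (difference 2.32 ± 0.30 (SE), limma adjusted p = 0.00181). The T210 ear above 1 FPKM was again the one that stood apart. TCP7, a transcription factor, stood at 5.55, 4.44, 9.66 and 10.9 FPKM in T209 and 0.0885, 0.510, 0.516 and 3.59 FPKM in T210 (2.16 ± 0.32, 0.00297). The precursor of the microRNA MIR393c, which in Arabidopsis targets auxin receptors, stood at 15.8, 14.9, 3.16 and 3.45 FPKM in T209 and 0.124 to 0.520 FPKM in T210 (2.68 ± 0.38, limma adjusted p = 0.00256).

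Higher in T210 were PSK4, a precursor of the growth peptide phytosulfokine, and TIP2-1, a water channel of the vacuole membrane. PSK4 stood at 0.0561 to 0.160 FPKM in T209 and 8.76, 4.81, 3.54 and 6.82 FPKM in T210 (difference -2.60 ± 0.25 (SE), limma adjusted p = 0.000551). TIP2-1 stood at 1.88, 2.07, 0.0433 and 0.139 FPKM in T209 and 54.5, 35.3, 13.7 and 1.04 FPKM in T210 (-3.12 ± 0.56, 0.00632). PSK4 was thus apart by a wide margin in every library, and TIP2-1 was lowest in T210 in the ear that stood apart.

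Among transcription factors, WRKY109 stood at 13.9, 0.530, 0.230 and 0.388 FPKM in T209 and 24.5, 55.9, 25.2 and 15.1 FPKM in T210 (difference -3.49 ± 0.62 (SE), limma adjusted p = 0.00602). Its T209 value of 13.9 FPKM was in the other library that stood apart, and WRKY109 meets the rule by which that library was singled out. The level of bHLH161 was 11.9, 14, 0.556 and 0.732 FPKM in T209 and 76.6, 87.8, 15.8 and 3.52 FPKM in T210 (-2.49 ± 0.35, 0.00236). All calls of these 7 genes outside the lists were kept without each library. GATA31 (2.34, limma adjusted p = 0.0496) was lost without 6 libraries (up to 0.115 without ear 1 of T210 at 10 DAP) and hsbp1 (2.01, 0.0173) without 3 (up to 0.0658 without ear 2 of T210 at 10 DAP).

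Of the 69 called genes named by rule, 22 lost the call when both libraries that stood apart were left out. Apart from a gene of the study given below, these were z1B_8, gz50, gz16, ss1, sh2, sh1, sps1, Floury1, o7, ohp1, FatB, RNRS3, PCNA, PIN1a, expB7, bx8, gst19, gst5, gst37, GATA31 and kin1. With rescaled libraries 15 lost the call, among them NRP1, H4C14, mir2 and EXPA5 beside z1B_8, gz50, gz16, sh2, sh1, o7, expB7, gst5, bx8 and GATA31.

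Among rows with a gene model but no gene name in the table used here, the 2 with the widest called difference each way were singled out after their values had been seen. GRMZM2G154523 stood at 46.5, 62.3, 37.6 and 59.8 FPKM in T209 and 0.150, 0.800, 1.57 and 1.40 FPKM in T210 (difference 4.77 ± 0.27 (SE), limma adjusted p = 4.58e-05). GRMZM2G009792 stood at 0 to 0.337 FPKM in T209 and 35.7, 25.6, 10.3 and 44.8 FPKM in T210 (-4.54 ± 0.39, 0.000392). Both were apart in every library. GRMZM2G473036 stood at 26.3, 26.3, 18.3 and 43.6 FPKM in T209 and 0, 0, 0.0481 and 4.13 FPKM in T210 (4.21 ± 0.48, limma adjusted p = 0.00116). GRMZM2G590027 stood at 9.44, 0, 1.15 and 0 FPKM in T209 and 101, 181, 72.9 and 40 FPKM in T210 (-5.32 ± 0.63, 0.00133). The lines did not overlap at either, and the value of each nearest to the other line was in a library that stood apart. GRMZM2G473036 itself meets the rule by which such a library was singled out.

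The 8 genes that the study drew from its mapping and pool comparison gave 1 call in each direction. GRMZM2G125923 stood at 4.11, 4.43, 3.05 and 4.49 FPKM in T209 and 1.61, 2.14, 0.528 and 0.583 FPKM in T210 (log2 difference 1.24 ± 0.21 (SE), limma adjusted p = 0.00537), a call kept without each library. GRMZM2G136106, whose call was also lost without both libraries that stood apart and with rescaled libraries, stood at 17.5, 25.6, 10.0 and 14 FPKM in T209 and 40.6, 46, 27 and 14.1 FPKM in T210 (-0.84, 0.0432), and its call was lost without 6 libraries (up to 0.131 without ear 1 of T209 at 10 DAP). The other 6, among them agpllzm, the leaf-type large subunit of ADP-glucose pyrophosphorylase (-0.25, limma adjusted p = 0.407), and GBSSIIa, a granule-bound starch synthase (0.01, 0.987), did not pass the test. A count of 2 in 8 is to be read against the 7.27% and 10.1% of all genes tested.

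Over both DAP, no call was made in 3 further lists. These were carotenoid synthesis and cleavage (11 genes, median 0.09), pyruvate metabolism and low oxygen (10 genes, median 0.10) and catalases (3 genes, median 0.08), where limma also called 0 without both libraries that stood apart. At 10 DAP alone CAT3 stood at 2.90 and 3.08 FPKM in T209 and 92.2 and 44.8 FPKM in T210 (difference at 10 DAP -4.03, limma adjusted p = 0.00284), while at 20 DAP it stood at 7.34 and 19 FPKM against 8.23 and 9.84 FPKM.

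**Figure D4:**
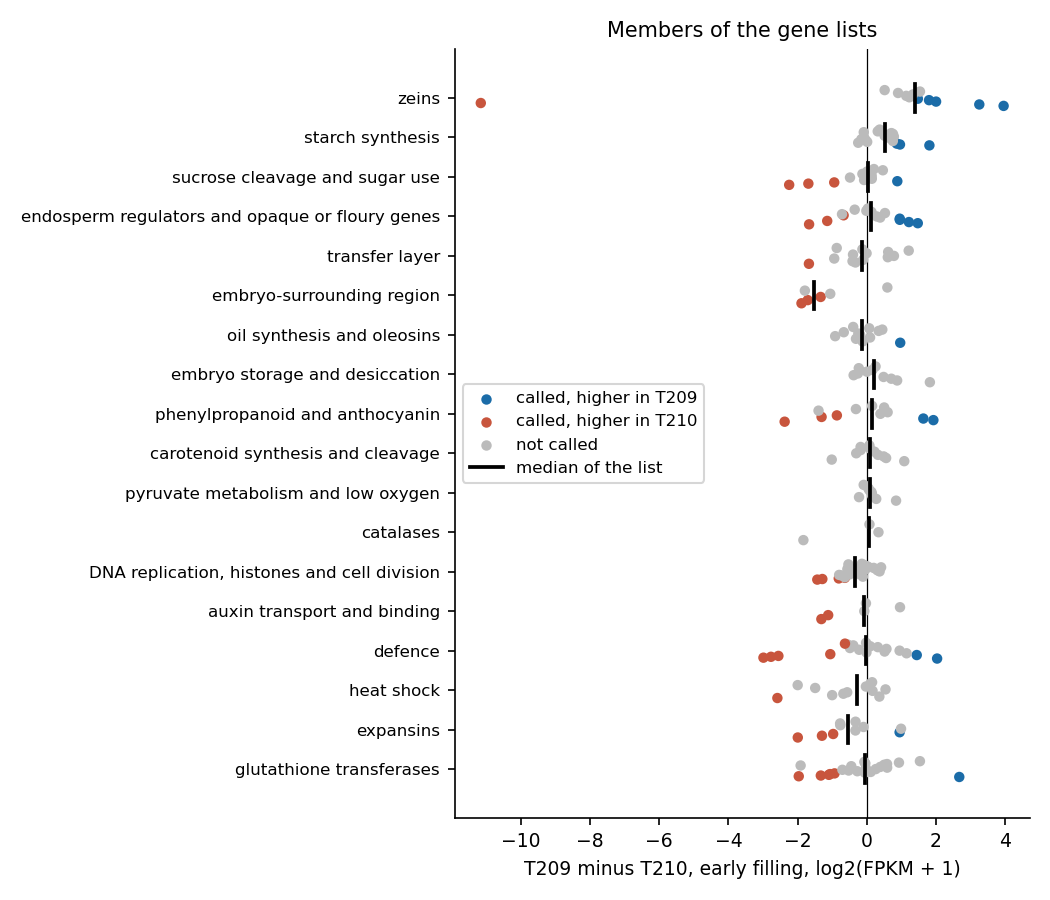
Differences between lines (T209 minus T210, log2(FPKM + 1), over 10 and 20 DAP) for the members of 18 gene lists, a point per distinct member tested. Blue points were called higher in T209, red points higher in T210, grey points were not called, and the black bar is the median of the list. The zein median of 1.41 lies to the right of 0 with gz27 alone at -11.16, and the embryo-surrounding region median of -1.52 lies furthest to the left.

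A fit with a mean for each line and DAP gave the differences at single times. At 10 DAP 3267 genes differed, 1532 higher in T209 (5.43% of the genes tested) and 1735 higher in T210 (6.15%). At 20 DAP 2058 genes differed, 792 higher in T209 (2.81%) and 1266 higher in T210 (4.49%). A total of 1008 genes were called at both, 1003 of them in the same direction and 5 in opposite directions. These counts rest on single ears: leaving out ear 2 of T209 at 10 DAP left 255 calls at 10 DAP, and leaving out ear 2 of T209 at 20 DAP left 175 calls at 20 DAP. With the libraries that stood apart left out, 1757 genes were called at 10 DAP and 1696 at 20 DAP.

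Whether the difference between lines itself changed from 10 to 20 DAP was tested as an interaction. Of 28227 genes, 53 were called (0.188%), 32 with the larger difference at 10 DAP and 21 with the larger difference at 20 DAP, and 24 changed sign. At an unadjusted p under 0.05 there were 2606. The count fell to 4 without both libraries that stood apart, and to 0 without ear 2 of T210 at 10 DAP. Of the 53, 3 had a gene name. In the first, kin1, the level was 78.8 and 100.01 FPKM in T209 against 0.540 and 1.98 FPKM in T210 at 10 DAP, and at most 0.903 FPKM in either line at 20 DAP. The gene gar2 showed the mirror image, at 42.4 and 49.2 FPKM in T210 against 0.328 and 0.472 FPKM in T209 at 10 DAP, and 1.19 FPKM or less at 20 DAP. The histone H1 gene hon101 turned over, at 84.9 and 88.7 FPKM in T209 against 23.9 and 31.9 FPKM in T210 at 10 DAP, and 26.3 and 26.3 FPKM against 87.0 and 56.6 FPKM at 20 DAP.

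**Figure D5:**
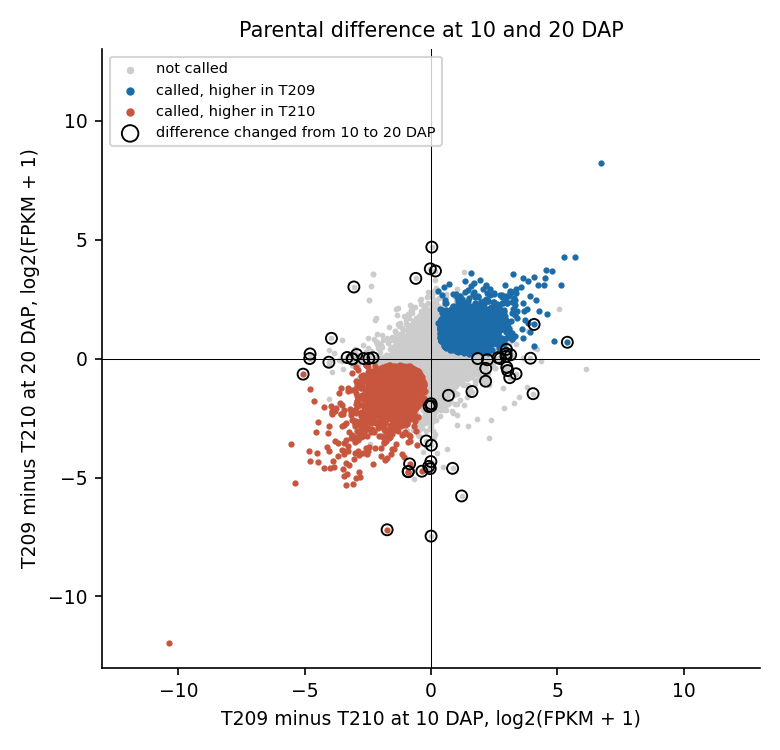
Difference between lines at 10 DAP (horizontal) and at 20 DAP (vertical) for the 28227 genes tested, both as T209 minus T210 on the log2(FPKM + 1) scale. Blue and red points are genes called over both DAP, grey points are not called, and circles mark the 53 genes whose difference changed from 10 to 20 DAP. Called genes lie in the quadrants of equal sign, many circles lie near an axis, and gz27 is the single point at the lower left.

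Early differences were compared with a step of development in other libraries. In T147 and T191, 2333 of 28328 genes tested rose from 10 to 20 DAP (8.24%) and 5830 fell (20.6%). Of 26101 genes tested in both comparisons, 6.72% were higher in T209 and 8.85% higher in T210. Among the 2215 that rose, 6.37% were higher in T209 and 5.64% higher in T210. Among the 5599 that fell, the shares were 4.02% and 7.11%, and among the 18287 not called they were 7.59% and 9.77%. In both classes these shares lay below those of all 26101 genes, and the median difference was -0.03 among the risers and -0.04 among the fallers. Taken by time, the median among the risers was 0.08 at 10 DAP and -0.14 at 20 DAP, against -0.03 and -0.02 over all genes tested in both.

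The differences were also followed into the later libraries of the same lines, which share no library with the early comparison. Of 4048 early calls that could be tested at 30, 40 and 50 DAP, 3537 had the same sign there (87.4%), against 62.7% of all 24711 genes tested in both. Of the 4048, 2308 (57%) were called there by limma in the same direction and 55 in the opposite direction, where 25.1% of all genes tested in both were called. Of the genes higher in T209, 90.6% kept the sign, and of those higher in T210, 85.3% (87.1% and 89.1% with rescaled libraries). The zeins dzs18 and z1C2 were not called there, with later differences of 0.99 (limma adjusted p = 0.213) and 0.93 (0.419). At 40 and 50 DAP both genes were low, at 21.0 FPKM or less in either line. At 30 DAP dzs18 still stood at 134 and 644 FPKM in T209 against 41.2 and 43.3 FPKM in T210. At that time z1C2 overlapped, at 480 and 1645 FPKM in T209 against 1014 and 43.3 FPKM in T210. Later differences of Pep1 (-4.05, limma adjusted p = 2.56e-05), incw1 (-2.04, 0.000296), PSK4 (-2.62, 0.00232), gst18 (2.17, 0.00506) and HKT1 (1.86, 0.0120) were called in the early direction. Those of Opaque10 (-0.78, limma adjusted p = 0.035), sh1 (-1.61, 0.0136) and GATA31 (-1.65, 0.0463) were called against it. These genes were called higher in T209 in early filling and higher in T210 at 30 to 50 DAP.

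The levels of the called genes in T147 and T191 at 10 and 20 DAP, a comparison chosen after the values had been seen, lay on either side. The mean of T147 was nearer to T209 than to T210 at 53.7% of the called genes, against 53% of all genes tested. For T191 the share was 67.5%, against 58.7%. Both lines were nearer to T209 at 35.7% of the called genes and both nearer to T210 at 14.5%, against 32.6% and 20.8% of all genes tested. At 39.3% of the genes called higher in T210 both lines were nearer to T209.

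Genes expressed in a single line were few. With at least 5 FPKM in the 4 libraries of a line and a listed 0 in the 4 libraries of the other, 0 genes were found for T209 and 2 for T210, both assembled loci. At 1 FPKM or more against 0, the counts were 10 and 12, with no gene name among them. Without both libraries that stood apart, the counts at 5 FPKM against 0 were 3 for T209 and 17 for T210, and at 5 FPKM against under 0.1 FPKM they were 9 and 26, one of the 9 being gst18. These counts could only rise or stay, since fewer libraries had to meet the rule. Genes of this kind had also set both libraries apart, so the rise is no result of its own. The place of called genes along the chromosomes was described from their order alone, with no test. Among 14432 pairs of neighbouring genes, the next gene was also called higher in T209 in 4.09% of cases after a gene higher in T209, against 3.56% of all next genes, and also higher in T210 in 10.5% after a gene higher in T210, against 7.97%.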

How the data were processed

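Total RNA of maize kernels was sequenced in 40 libraries (4 inbred lines, 5 DAP, 2 ears each). The authors deposited 1 table of FPKM per gene or assembled locus (65196 rows), with no counts. Per the submitters' processing notes, which give no roles, Bowtie 0.12.2, Cuffdiff and B73 RefGen_v3 were used. Depth is therefore unknown beyond a relative value, and intervals from counts could not be given.

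From these values, log2(FPKM + 1) was fitted in R 4.3.3 with limma 3.58.1 (trend on the mean) on the 8 libraries of T209 and T210 at 10 and 20 DAP, with line and DAP as terms (5 residual degrees of freedom). A mean for each of the 4 groups gave the values at single DAP and the interaction. A gene entered the test if 2 or more libraries reached 1 FPKM, adjusted p-values (Benjamini-Hochberg) covered all of them, and 0.05 was the threshold. With 2 ears a group, p-values measure the spread between these ears, and in the additive fit also any change of the line difference between the DAP. The same fit was run on 30 to 50 DAP, and on 10 against 20 DAP in T147 and T191. Tested on simulated data of 28227 genes, the early fit recovered 28% of planted differences of size 1 and 79% of size 2 (log2). These differences were planted in 200 genes taken only from the more abundant ones. The 16207 genes tested with a mean under 5 FPKM were not open to choice, so recovery among them was not tested. Recovery with as many differences as the 4896 early calls was not tested either.

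Gene names came from RefSeq (Zm-B73-REFERENCE-NAM-5.0, another build, so no coordinates or sequences are given), where 2881 rows had one. Named genes were the 10 with the widest called difference each way, called members of 20 gene lists and the 8 genes of the study, with the 3 named genes of the interaction. The rule had asked for a RefSeq description, and the gene name took its place. Members and lists were chosen with earlier results of these data known. Alternatives were another pseudocount, other filters, rescaled libraries, all 40 libraries in 1 fit, the ear number as a block, no trend and each library left out. Ears of equal number in different groups did not deviate together (r from -0.123 to 0.168), so they were not treated as pairs.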

Additional observations from a re-analysis of the deposited data

Results flagged for a closer look

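The difference between T209 and T210 itself changed from 10 to 20 DAP at 53 genes (interaction in limma, adjusted p under 0.05), and 3 of these have a gene name. For kin1 the difference at 20 DAP minus that at 10 DAP was -4.71 on the log2(FPKM + 1) scale (limma adjusted p = 0.0154): within the 8 libraries, both ears of T209 were high at 10 DAP and the other 6 libraries were low. For gar2 it was 4.41 (limma adjusted p = 0.0156), with both ears of T210 high at 10 DAP. For hon101, which encodes a histone H1, it was -3.0 (limma adjusted p = 0.0378), and the order of the lines turned over between the DAP. The 53 became 4 without both libraries that stood apart.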

How the results depend on the processing

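With at least 5 FPKM required in 2 libraries, calls numbered 1759 (early filling), 819 (10 DAP), 776 (20 DAP) and 19 (interaction), with fewer genes tested. Without a filter, 20 DAP gave 1195 calls and the interaction 0. A pseudocount of 0.1 gave 13 interaction calls. A single fit over all 40 libraries gave 3220 calls at 20 DAP and 546 interaction calls. Without ear 1 of T209 at 10 DAP and ear 2 of T210 at 20 DAP, calls numbered 3240, 1757, 1696 and 4. Leaving out 1 library at a time gave 2666 to 4676 early calls, 255 to 3862 at 10 DAP, 175 to 2845 at 20 DAP and 0 to 74 for the interaction, with the lowest values without ear 2 of T209 at 10 DAP (early and 10 DAP), ear 2 of T209 at 20 DAP, and ear 2 of T210 at 10 DAP. The cause was not tested. The replicate block on the ear number gave 4719 early calls, 3443 at 10 DAP, 2201 at 20 DAP and 39 for the interaction.

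The share of early calls higher in T209 was 41.9% and became 47.2% with rescaled libraries. Genes at 5 FPKM or more in a single line numbered 10 (T209) and 12 (T210) when the level was lowered to 1 FPKM against 0, and for T210 3 at 5 FPKM against under 0.1 FPKM. Without both libraries that stood apart they numbered 3 and 17 against 0, and 9 and 26 against under 0.1 FPKM, a rise built in by the way these libraries were singled out. Of 69 called genes named by rule, 0 changed sign and 38 lost the call under at least 1 alternative. Of the 4896 early calls, 2253 were kept whichever library was left out. Low genes are limited by the scale, since 1 FPKM is added to each value, and by 2 ears a group.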
